A study of Mus musculus with 6 samples.

Results

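A set of 8 genes that mark canonical Wnt signalling in the intestine was followed in 6 bulk RNA sequencing libraries of mouse colon tumours: *Axin2*, *Nkd1*, *Nkd2*, *Apcdd1*, *Tnfrsf19*, *Sp5*, *Myc* and *Prox1*. They were chosen by name as feedback inhibitors and direct targets of the pathway, with earlier results of these data known. Counts of genes called below therefore describe the set and do not test it. All 8 of 8 were found among the 53700 gene rows of the count table. All 8 passed the filter on low counts. The libraries fall into 2 groups of 3. Tumours labelled APC-WT came from cachectic mice, that is, mice with the wasting of advanced cancer, which had eaten doxycycline at 100 mg/kg in food pellets for 10 days and kept their endogenous *Tcf7l2* expression. Tumours labelled APC-KI came from mice that had recovered from cachexia after 6 weeks on the same doxycycline food, which represses *Tcf7l2* throughout the body of APC-KI animals and not of APC-WT animals. Both groups had therefore received the drug. Genotype, weeks on doxycycline, cachexia state and *Tcf7l2* repression change together and cannot be told apart. Sex, read from transcripts below, changes with them in part. The sources used here do not give the alleles behind APC-WT and APC-KI, the driver of the repression, the sexes or the ages. They also do not say whether the 3 tumours of a group came from separate mice. The p values measure the spread between these libraries.

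In canonical Wnt signalling a ligand at the cell surface halts the destruction complex, a set of proteins around the scaffold AXIN1 or AXIN2 that marks beta-catenin for degradation. Stabilised beta-catenin enters the nucleus and binds TCF/LEF factors, of which TCF7L2 is the main one in the intestinal epithelium, and their target genes are transcribed. Some targets encode inhibitors of the pathway itself and so act as negative feedback, while others encode growth and cell identity factors. Loss of the tumour suppressor APC, a part of the destruction complex, is the usual first lesion of intestinal tumours and leaves the pathway switched on.

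*Tcf7l2*, the gene repressed by design, averaged 41.2 ± 4.84 CPM across the APC-WT libraries and 5.57 ± 1.23 CPM across the APC-KI libraries (mean ± SD, n = 3 in either group), a log2 change of −2.89 ± 0.19 (edgeR adjusted p = 0.00124). CPM values are counts scaled to the size of each library, with TMM factors that correct for its makeup. The libraries held 51777342 to 63921108 counts. APC-WT replicates 1 and 2 carried 19164 and 16055 counts of Y-linked genes, and the other 4 libraries carried 0. Results below are therefore also given for those 4 libraries. With 1 APC-WT tumour among them, that test takes its spread from the APC-KI tumours. Across the transcriptome 7.63% of the 19127 genes tested were called lower and 12.5% higher in APC-KI tumours (edgeR quasi-likelihood test, Benjamini-Hochberg adjusted p under 0.05). The share of calls that were higher was 62.1%, and 41.0% with library totals in place of TMM factors, where the median change over all genes was −0.13 on the log2 scale instead of −0.02. The colon epithelium markers *Cdx2*, *Vil1*, *Cdh17* and *Lgals4* were detected in both groups, with summed levels of 2084 to 2275 CPM in APC-WT against 3252 to 4236 CPM in APC-KI tumours. Most of this sum was *Lgals4*. *Cdx2* was at 56.5, 51.6 and 5.34 CPM in APC-KI replicates 1 to 3 and at 17.3 to 34.0 CPM in APC-WT tumours. It was not called (edgeR adjusted p = 0.709), and the other 3 were called higher.

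The sequences before the start sites were read to show what lies at the promoters of the 8 genes, whether they fell or not. RefSeq (GRCm38.p6) gave 8 windows of 250 bases before a start site for 6 of the genes, with *Apcdd1* and *Myc* unmatched. TCF/LEF factors bind a motif with the letters CTTTG, searched here as CTTTG followed by 2 letters that are each A or T, on both strands. The window of *Sp5* held 2 such matches and the second start site of *Tnfrsf19* held 1, so 2 of 8 windows had a match, against 14.8% of all 32851 windows of this length and 1.43% with 2 or more. Both windows held CTTTGAT itself or its reverse complement, which 3.21% of all windows hold. The core alone, CTTTG followed by 1 letter that is A or T, lies inside the longer motif. It was found in 3 of 8 windows, where 27.6% of all windows held at least 1 match. *Sp5* held 4 matches, and *Tnfrsf19* and *Prox1* held 1 each. Of all windows 5.15% held at least 2 and 0.0944% at least 4. These are matches of letters and not measured binding. The *Sp5* window (chr2:70474673-70474922, plus strand, no exon overlapped) and 60 bases around the *Tnfrsf19* match (chr14:61038156-61038215, minus strand) are printed because they carry the longer motif. The *Tnfrsf19* match lies in front of the inner of its 2 start sites, where the 250-base window overlaps 120 exon bases of the noncoding gene *Gm41168*. The capitals mark the core letters on either strand.
Sp5: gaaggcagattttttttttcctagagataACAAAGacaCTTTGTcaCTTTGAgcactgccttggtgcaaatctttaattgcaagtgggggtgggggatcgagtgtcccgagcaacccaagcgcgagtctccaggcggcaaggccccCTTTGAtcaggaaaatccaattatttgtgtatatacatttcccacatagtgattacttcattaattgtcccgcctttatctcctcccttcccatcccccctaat
Tnfrsf19: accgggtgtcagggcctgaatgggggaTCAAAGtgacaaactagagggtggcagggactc

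The windows of *Nkd1* (chr8:88527383-88527632, plus strand) and *Nkd2* (chr13:73847632-73847881, minus strand) are printed because the values of these paralogs are set side by side further on. Neither holds the motif or its core, as is true of the *Axin2* window. The RefSeq start site of *Nkd1* lies inside the gene as GENCODE draws it. Absence of these letters from the window says nothing about sites elsewhere.
Nkd1: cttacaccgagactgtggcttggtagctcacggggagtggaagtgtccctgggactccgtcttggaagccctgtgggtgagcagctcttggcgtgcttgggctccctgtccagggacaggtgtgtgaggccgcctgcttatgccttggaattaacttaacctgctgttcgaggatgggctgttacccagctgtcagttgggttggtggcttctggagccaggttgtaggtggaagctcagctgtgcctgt
Nkd2: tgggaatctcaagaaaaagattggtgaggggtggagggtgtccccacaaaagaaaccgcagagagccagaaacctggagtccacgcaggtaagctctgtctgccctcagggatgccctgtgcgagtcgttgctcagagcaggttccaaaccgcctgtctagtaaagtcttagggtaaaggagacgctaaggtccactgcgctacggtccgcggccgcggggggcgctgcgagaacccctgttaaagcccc

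In APC-KI tumours 7 of the 8 genes fell and 0 rose, where 7.63% of all genes tested were called lower. *Nkd2* was the gene not called. The APC-WT and APC-KI values did not overlap for 7 of the 8 genes, all lower in APC-KI, where 21.5% of all genes tested were lower without overlap. The median log2 change of the 8 genes was −1.40 and that of all genes tested was −0.02. *Apcdd1* had the largest fall of the 8, to 15.1% of its APC-WT mean, followed by *Sp5* at 26.9% and *Nkd1* at 31.5%. *Prox1*, *Axin2* and *Tnfrsf19* kept 37.0%, 38.9% and 42.3%, and *Myc* kept 65.6%. In bulk tissue, fewer cells of a type and less RNA per cell cannot be told apart.

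The count of 7 was set against the share of all genes called lower under each other setting. All 7 were called with RLE factors (7.62% of all genes lower), upper-quartile factors (9.75%), library totals (14.9%), DESeq2 (12.5%) and limma-voom (7.55%). The same held with no filter on low counts (3.9%), with a floor of 1 CPM in 3 libraries (8.96%) and without mitochondrial and the 10 most abundant genes (7.63%). With the replicate number as a block 6 were called (2.43%). Leaving out APC-WT replicates 1, 2 and 3 gave 7, 6 and 7 calls (4.56%, 1.89% and 6.54%), and leaving out APC-KI replicates 1, 2 and 3 gave 6, 5 and 7 (1.53%, 2% and 8.12%). In the 4 libraries that lacked Y-linked counts 1 was called, *Tnfrsf19*, and the changes of *Axin2*, *Nkd1*, *Apcdd1*, *Sp5*, *Myc* and *Prox1* were −0.97, −1.58, −2.01, −1.50, −0.47 and −1.28, with adjusted p from 0.0634 to 0.203. With Y-linked counts as a covariate *Tnfrsf19* was again the one called, where 1.02% of all genes were lower.

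**Figure D1:**
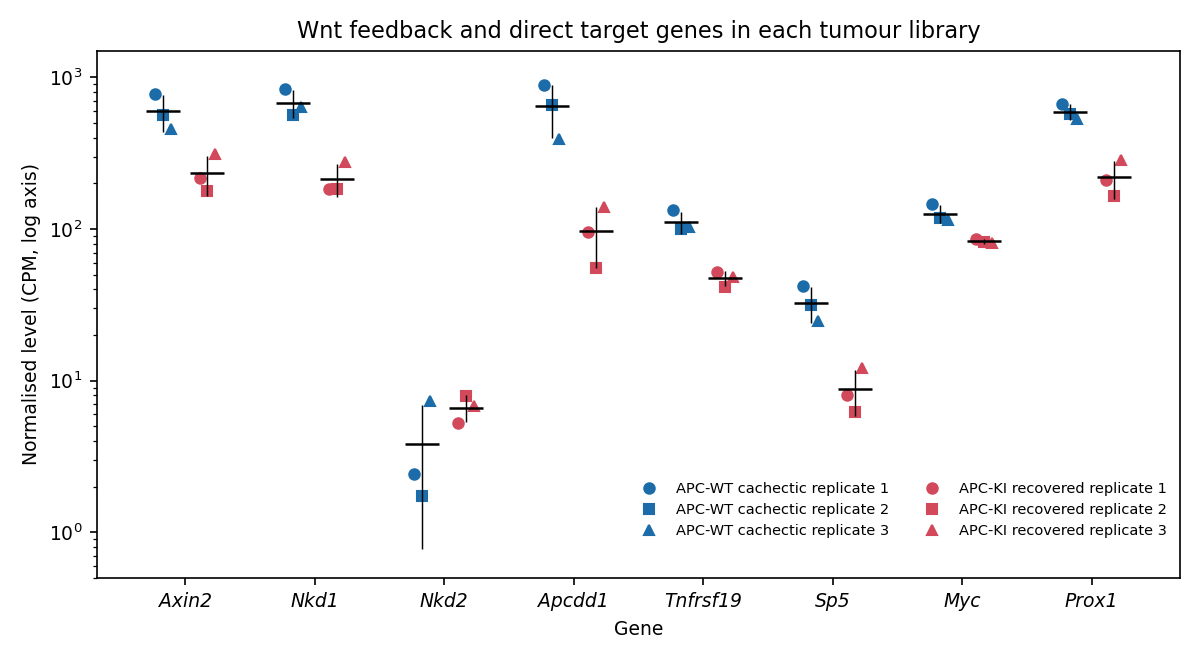
Normalised level of each gene in every library (CPM, log axis), with APC-WT cachectic tumours in blue and APC-KI recovered tumours in red. Symbols mark the replicate, horizontal bars the group mean and vertical bars the SD (n = 3 each). The groups are apart for 7 genes and overlap for *Nkd2*.

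*Axin2* (ENSMUSG00000000142, chr11:108920349-108950783, plus strand, GRCm38) encodes a scaffold of the destruction complex and is the most widely used readout of the pathway. It stood at 783, 568 and 458.2 CPM in APC-WT replicates 1 to 3 and at 216, 178 and 311 CPM in APC-KI replicates 1 to 3. The lowest APC-WT library was thus above the highest APC-KI library. *Axin2* was 2.57-fold lower in APC-KI tumours, with a log2 change of −1.36 ± 0.27 (SE) and an interval of −2.01 to −0.72 (95%, edgeR adjusted p = 0.0204). This was the weakest of the 7 calls: the adjusted p was 0.0619 without APC-WT replicate 2, 0.0764 without APC-KI replicate 1 and 0.0586 without APC-KI replicate 2. With the replicate number as a block it was 0.0581, and over all 18 alternatives it ran from 8.52e-06 to 0.203, the last in the 4 libraries that lacked Y-linked counts. *Axin1*, which encodes the related scaffold that is not a target gene, was at −0.09 and not called (adjusted p = 0.441).

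The naked cuticle genes *Nkd1* (ENSMUSG00000031661, chr8:88521354-88594884, plus strand) and *Nkd2* (ENSMUSG00000021567, chr13:73818534-73847631, minus strand) encode proteins that bind Dishevelled, the adaptor between the receptors and the destruction complex, and dampen the signal. *Nkd1* stood at 843, 565 and 641 CPM in the APC-WT libraries and at 185, 184 and 276 CPM in the APC-KI libraries. Every APC-WT library lay above every APC-KI library, and *Nkd1* was 3.18-fold lower (log2 change −1.67 ± 0.22, edgeR adjusted p = 0.0073). *Nkd2* was rare, with 98 to 392 counts in the APC-WT and 273 to 414 counts in the APC-KI libraries. Its levels were 2.43, 1.72 and 7.33 CPM in APC-WT replicates 1 to 3 and 5.24, 7.92 and 6.78 CPM in APC-KI replicates 1 to 3. APC-WT replicate 3 fell among the APC-KI values, and the other APC-WT libraries were lower than all 3 of them. The log2 change of *Nkd2* was 0.80 ± 0.54 with an interval of −0.49 to 2.09, and it did not pass (edgeR adjusted p = 0.318).

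The *Nkd2* value rests on APC-WT replicate 3. Without that library the log2 change was 1.67 and passed (adjusted p = 0.0147, where 12.9% of all genes were called higher), whereas in the 4 libraries that lacked Y-linked counts, where it is the one APC-WT library, it was −0.14 (adjusted p = 0.805). APC-WT replicate 3 also had the highest sum of 9 fibroblast markers among the APC-WT libraries, at 2562 CPM against 963 and 1462 CPM, with 3024 to 4140 CPM in APC-KI tumours and none of the 9 at 0. The part of these cells in the *Nkd2* level was not tested. The ratio of *Nkd1* to *Nkd2* was 347, 328 and 87.4 in the APC-WT libraries and 35.2, 23.2 and 40.7 in the APC-KI libraries, without overlap. An exact two-sided permutation test of this ratio gave p = 0.1, the smallest that 3 against 3 allows. As *Nkd1* fell and *Nkd2* did not, the direction of the ratio follows from the values above.

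*Apcdd1* (ENSMUSG00000071847) encodes a membrane glycoprotein that inhibits Wnt signalling at the cell surface. Its levels were 888, 658 and 392 CPM in the APC-WT libraries and 95.9, 55.6 and 140.2 CPM in the APC-KI libraries. It was the most variable of the 7 within both groups, with coefficients of variation of 38.4% and 43.5%, and still the groups were far apart. *Apcdd1* was 6.64-fold lower (log2 change −2.73 ± 0.43, interval −3.76 to −1.71, edgeR adjusted p = 0.0110), and ranked 138 by size of decrease among the 19127 genes tested. Its ratio to *Axin2* was 1.13, 1.16 and 0.856 in APC-WT and 0.444, 0.313 and 0.451 in APC-KI libraries. The ratio was lower in every APC-KI library (exact permutation p = 0.1, again the smallest possible). As *Apcdd1* had the larger fall of these genes, the direction of the ratio follows from the values above.

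*Tnfrsf19* (ENSMUSG00000060548, chr14:60963875-61046490, minus strand), also known as Troy, encodes a receptor of the TNF superfamily that marks intestinal stem cells. It stood at 133, 99.5 and 102 CPM in APC-WT against 52.0, 41.6 and 48.1 CPM in APC-KI libraries, with little spread in either group. The log2 change was −1.24 ± 0.14 with the smallest adjusted p of the 8 genes (edgeR adjusted p = 0.00532). *Tnfrsf19* was the one gene of the 8 that still passed in the 4 libraries that lacked Y-linked counts (log2 change −1.12, adjusted p = 0.0371), where 0.745% of all genes were called lower.

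*Sp5* (ENSMUSG00000075304, chr2:70474923-70477729, plus strand) encodes a zinc finger factor of the SP family that is induced by Wnt signalling and represses other Wnt targets. It stood at 41.8, 31.4 and 24.9 CPM in APC-WT against at 8.09, 6.25 and 12.03 CPM in APC-KI libraries. *Sp5*, whose upstream window with 4 core matches is printed above, was 3.72-fold lower (log2 change −1.89 ± 0.29, edgeR adjusted p = 0.0101). Of the 8 other SP family genes 6 could be tested, and 1 rose and 1 fell. Over all genes tested 12.5% were called higher and 7.63% lower, so counts this small show no shift of the list. *Sp6*, a factor of epithelial appendages, fell by 1.74 on the log2 scale (adjusted p = 0.0180). *Sp8*, a factor of limb and brain development, rose by 3.29 (adjusted p = 0.0164) from 0.378 ± 0.186 to 3.73 ± 2.18 CPM. Neither passed without APC-WT replicate 2 or without APC-KI replicate 1, with adjusted p between 0.0554 and 0.0652, nor did *Sp6* without APC-KI replicate 2 (0.0565). In the 4 libraries that lacked Y-linked counts 0 of the list rose or fell, with *Sp6* at −1.08 (adjusted p = 0.164) and *Sp8* at 4.45 (adjusted p = 0.117). *Sp4* and *Sp2* did not pass, at −0.34 and −0.17.

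*Prox1* (ENSMUSG00000010175, chr1:190118035-190170714, minus strand) encodes a homeobox factor that is a Wnt target in colon tumours and the master factor of lymphatic endothelium. Its levels were 672, 577 and 531 CPM in APC-WT against 210.1, 164 and 285 CPM in APC-KI libraries, without overlap. *Prox1* was 2.70-fold lower (log2 change −1.43 ± 0.21, edgeR adjusted p = 0.00878). Markers of 2 other cell types that express *Prox1* had higher sums in APC-KI tumours. The sum of 6 lymphatic markers was 67.2 to 86.5 CPM in APC-WT against 128 to 232 CPM in APC-KI tumours. Of the 6, 2 were higher, *Flt4* and *Ccl21a*, and 0 lower, where 12.5% of all genes tested were higher. The sum of 8 enteroendocrine markers was 17.5 to 18.6 CPM in APC-WT against 57.5 to 58.1 CPM in APC-KI tumours, with 3 of 7 tested higher and 0 lower. *Chgb* alone was at 40.0 to 40.6 CPM in APC-KI tumours. The part of these cells in the *Prox1* level was not tested. No marker of these lists was at 0 in all libraries. An antisense gene, *Prox1os*, shares 133 exon bases with *Prox1*, and its 499 counts in all libraries together stand against 141615 for *Prox1*.

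*Myc* (ENSMUSG00000022346, chr15:61985391-61990374, plus strand) encodes the growth factor-responsive transcription factor that drives ribosome production and cell division and was an early known target of TCF factors in colon cancer. It stood at 146, 119 and 115 CPM in APC-WT against at 86.0, 82.1 and 80.5 CPM in APC-KI libraries. *Myc* had the smallest fall of the 7, 1.53-fold, and also the smallest spread among APC-KI tumours, with a coefficient of variation of 3.36%. The log2 change was −0.61 ± 0.10 (interval −0.86 to −0.36, edgeR adjusted p = 0.0130). Without APC-KI replicate 2 it was −0.60 and missed the threshold (adjusted p = 0.0518).

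Of 14 growth genes associated with MYC, which mostly act in the nucleolus, 7 fell and 0 rose, and their median log2 change was −0.27. Over all genes tested 7.63% were called lower and 12.5% higher. *Nop56* fell by 0.45 (adjusted p = 0.00828), the G1 kinase gene *Cdk4* by 0.49 (0.0180), the nucleolar chaperone gene *Npm1* by 0.41 (0.0310) and *Nolc1* by 0.29 (0.0278). Of these 4 genes *Nop56* alone passed with each library left out in turn. Of all genes tested 1.89%, 1.53% and 2% were lower without APC-WT replicate 2, APC-KI replicate 1 and APC-KI replicate 2. The list held 3 lower genes without APC-WT replicate 1 (4.56% of all genes) and 4 lower and 2 higher without APC-KI replicate 3 (8.12% lower). It held 11 lower when scaled to pan-epithelial markers, where 27.2% of all genes were lower. The count of lower genes was 1 without APC-WT replicate 2, APC-KI replicate 1 or APC-KI replicate 2, and 0 in the 4 libraries that lacked Y-linked counts. Of 11 partners and antagonists of MYC 2 rose and 2 fell, small counts that show no shift of the list beside the shares of all genes. *Mxd1*, whose product competes with MYC for MAX in differentiating cells, rose from 140 ± 18.9 to 367 ± 83.5 CPM (log2 change 1.39 ± 0.19, adjusted p = 0.00785), and *Mlx* rose by 0.72 (adjusted p = 0.00941). *Zbtb17* and *Mxi1* fell by 0.45 and 0.32, and both lost the call when any one of APC-WT replicates 1 and 2 and APC-KI replicates 1 and 2 was left out, *Mxi1* also without APC-KI replicate 3 (adjusted p up to 0.0801 and 0.124). *Mxd1* and *Mlx* passed with each library left out and not in the 4 libraries that lacked Y-linked counts (adjusted p = 0.12 and 0.1). The sum of 8 proliferation markers was 1165 to 1577 CPM in APC-WT against 1205 to 1323 CPM in APC-KI tumours. Of these 8, 1 was lower, *Mcm2*, where 7.63% of all genes tested were.

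**Figure D2:**
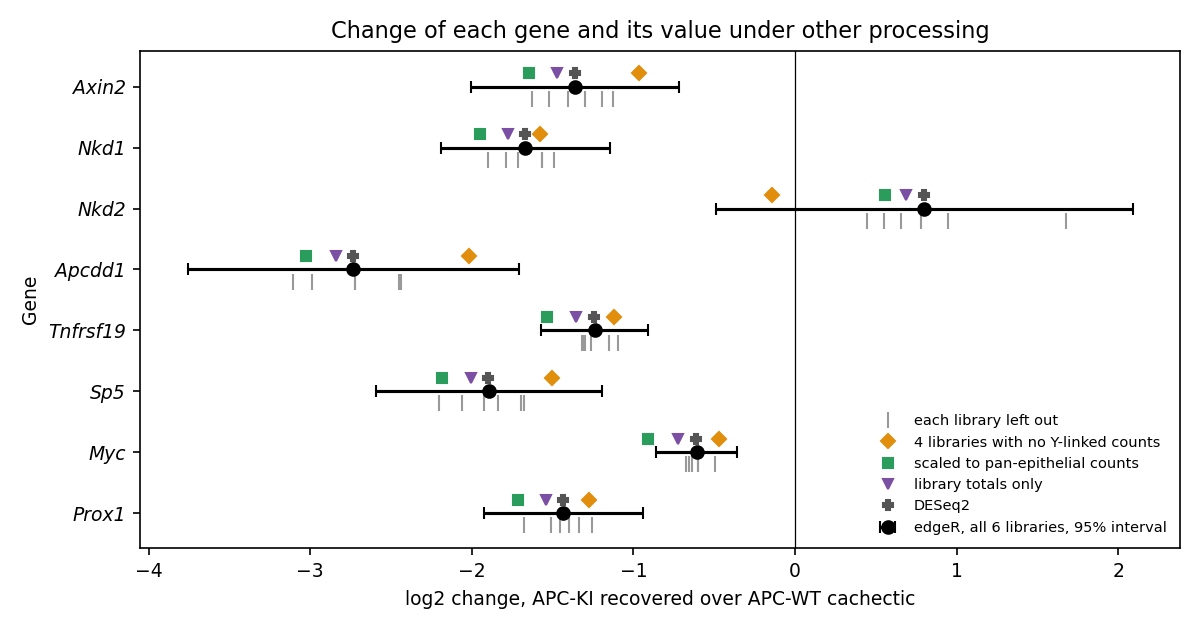
Log2 change of each gene, APC-KI recovered over APC-WT cachectic, with its 95% interval over all 6 libraries (black), each library left out (grey ticks) and 4 other settings (coloured symbols). The 7 genes that fell stay below 0 under every setting drawn, and *Nkd2* spans 0.

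The order of libraries within a group differed between the 7 genes, and the share of all genes with each order was not computed. APC-WT replicate 1 was the highest APC-WT library for all 7, and APC-WT replicate 3 the lowest for 5 of them. Among APC-KI tumours replicate 3 was the highest for 5 (*Axin2*, *Nkd1*, *Apcdd1*, *Sp5* and *Prox1*) and replicate 1 for *Tnfrsf19* and *Myc*, and replicate 2 was the lowest for 6. APC-KI replicate 3 kept 51.5% of the APC-WT mean of *Axin2*, and replicate 2 kept 29.5%. The residual *Tcf7l2* level of the same libraries was 4.48, 6.90 and 5.34 CPM in APC-KI replicates 1 to 3. The sum of 8 immune markers was lowest in replicate 3 among the APC-KI tumours, at 797 CPM against 1493 and 1849 CPM. It was 181 to 269 CPM in APC-WT tumours, and its part in the order was not tested. Most of the APC-KI sum was 1 plasma cell gene, *Jchain*, at 1319, 1558 and 640 CPM in replicates 1 to 3. In APC-WT tumours *Jchain* was at 93.5 to 158 CPM. Of the 8 markers 3 were called higher and 5 were not, where 12.5% of all genes tested were higher. APC-WT replicate 3, the APC-WT library without Y-linked counts, lay above all APC-KI libraries for all 7 genes. This follows from the groups not overlapping for these 7 and adds nothing to it.

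Per kilobase of exon, which allows levels of different genes to be compared, *Nkd1* and *Axin2* led in both groups. In APC-WT tumours the levels were 149.8 ± 31.6 CPM per kilobase for *Nkd1*, 109.5 ± 30.0 for *Axin2* and 70.7 ± 8.53 for *Prox1*. *Apcdd1* and *Myc* followed at 50.2 ± 19.2 and 46.5 ± 6.33, then *Tnfrsf19* at 23.5 ± 3.89, *Sp5* at 15.6 ± 4.06 and *Nkd2* at 0.793 ± 0.633. The ranges of *Nkd1* and *Axin2*, of *Prox1* and *Apcdd1*, and of *Apcdd1* and *Myc* overlapped, and all other neighbours in this order were apart. By group means in APC-KI tumours *Myc* took the third place, at 30.5 ± 1.03, and *Apcdd1* the sixth, at 7.55 ± 3.28 CPM per kilobase. *Nkd1* and *Axin2* stood there at 47.1 ± 11.6 and 42.6 ± 12.4, with overlapping ranges. The ranges of *Myc* and *Prox1*, of *Tnfrsf19* and *Apcdd1*, and of *Apcdd1* and *Sp5* overlapped as well. In APC-KI replicate 3 *Prox1* was above *Myc*, at 34.0 against 29.6 CPM per kilobase, and *Apcdd1* above *Tnfrsf19*, at 10.9 against 10.1, so these places do not hold in every library. These lengths are unions of GENCODE exons, and a gene with long untranslated parts that are little used in the tissue appears lower than it is.

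**Figure D3:**
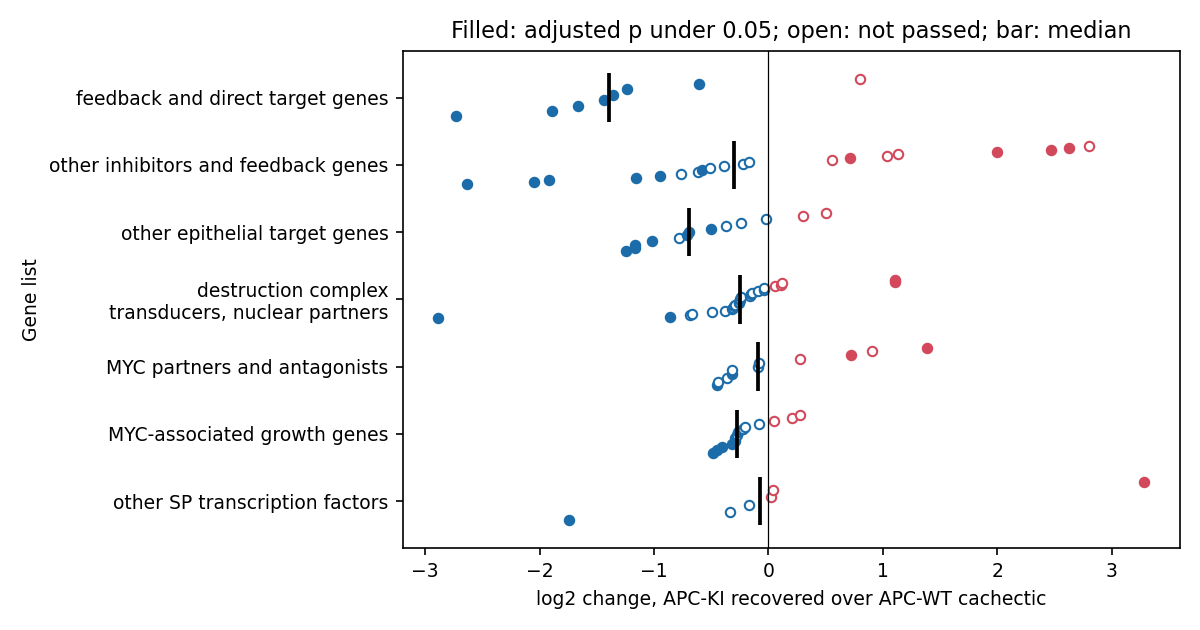
Log2 change of each gene tested, APC-KI recovered over APC-WT cachectic, in the 8 feedback and direct target genes and in 6 related lists. Filled points passed at an adjusted p under 0.05, open points did not, blue is below 0 and red above, and black bars are medians, which run from −1.40 in the top row to −0.07 for the other SP factors.

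The other genes of the pathway did not move as one. Of 13 further epithelial target genes tested, 7 fell and 0 rose, with a median log2 change of −0.69. Over all genes tested 7.63% were called lower and 12.5% higher. *Lgr5*, the R-spondin receptor of stem cells, fell by 1.02, *Tcf7* and *Mmp7* by 1.17 each, and *Sox9* by 0.69 (adjusted p between 0.00357 and 0.00817). The crypt receptor genes *Ephb2* and *Ephb3* had changes of −0.02 and −0.38 and did not pass. Of 20 other inhibitors and feedback genes tested, 6 fell and 4 rose, to be read beside the same shares of all genes. *Shisa2*, which holds Wnt receptors in the cell interior, had the smallest p of the list and fell from 57.4 ± 2.60 to 15.2 ± 1.66 CPM (log2 change −1.92 ± 0.11, adjusted p = 0.00119). *Notum*, a secreted enzyme that removes the lipid of Wnt ligands, fell from 402 ± 70.3 to 64.5 ± 24.2 CPM, and *Wif1*, which binds the ligands, by 2.05. *Znrf3*, a ligase that removes Wnt receptors, fell by 1.16, and did not pass without APC-KI replicate 1 (adjusted p = 0.0563). The 4 that rose were *Sfrp1*, *Frzb*, *Kremen2* and *Shisa3*, with changes of 2.47, 2.00, 0.71 and 2.62. All 4 lost the call without APC-WT replicate 2, without APC-KI replicate 1 or without APC-KI replicate 2. *Sfrp1* and *Frzb* are also expressed by stromal cells, whose markers were higher in APC-KI tumours. There 4 of 9 fibroblast markers and 10 of 10 smooth muscle markers rose, where 12.5% of all genes tested did. Smooth muscle sums were 232 to 531 CPM in APC-WT against 1074 to 1718 CPM in APC-KI tumours. The part of these cells was not tested.

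Among 26 parts of the destruction complex, transducers and nuclear partners, 4 fell and 2 rose, where 7.63% of all genes tested were called lower and 12.5% higher. The 4 that fell include *Tcf7l2*, which is repressed by design. Besides *Tcf7l2* these were the cofactor gene *Bcl9*, which fell by 0.86 (adjusted p = 0.0055), *Dvl1* and *Lrp5*, lower by 0.25 and 0.32 on the log2 scale, and the repressor genes *Tle4* and *Tcf7l1*, which rose by 1.11 and 1.10 (adjusted p = 0.00532 and 0.0179). The *Tcf7l1* call was lost without APC-KI replicate 1 or without APC-WT replicate 2, with an adjusted p of up to 0.0668. Beta-catenin itself, *Ctnnb1*, was at −0.25 and not called (adjusted p = 0.0666), and *Apc* one of 0.06 (adjusted p = 0.657). The count of genes that fell was 2 without APC-WT replicate 2, APC-KI replicate 1 or APC-KI replicate 2 (1.89%, 1.53% and 2% of all genes). It was 8 without APC-KI replicate 3 (8.12%). This count also moved with the scaling, to 11 with library totals (14.9% of all genes lower) and 10 in DESeq2 (12.5%). It was 17 when scaled to pan-epithelial markers, where 27.2% of all genes were lower. With that scaling the inhibitor list held 9 lower and 4 higher genes and the epithelial target list 11 lower and 0 higher. In the 4 libraries that lacked Y-linked counts the epithelial target list held 3 lower genes, the inhibitor list 1 lower and 0 higher, and this list 1 lower and 1 higher. The epithelial target list held 1 higher gene without APC-WT replicate 3, without APC-KI replicate 3, in DESeq2, with no filter on low counts and with the replicate block. Its count of lower genes was 4 without APC-WT replicate 2 or APC-KI replicate 1, and the inhibitor list held 3 lower genes without APC-KI replicate 1.

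**Figure D4:**
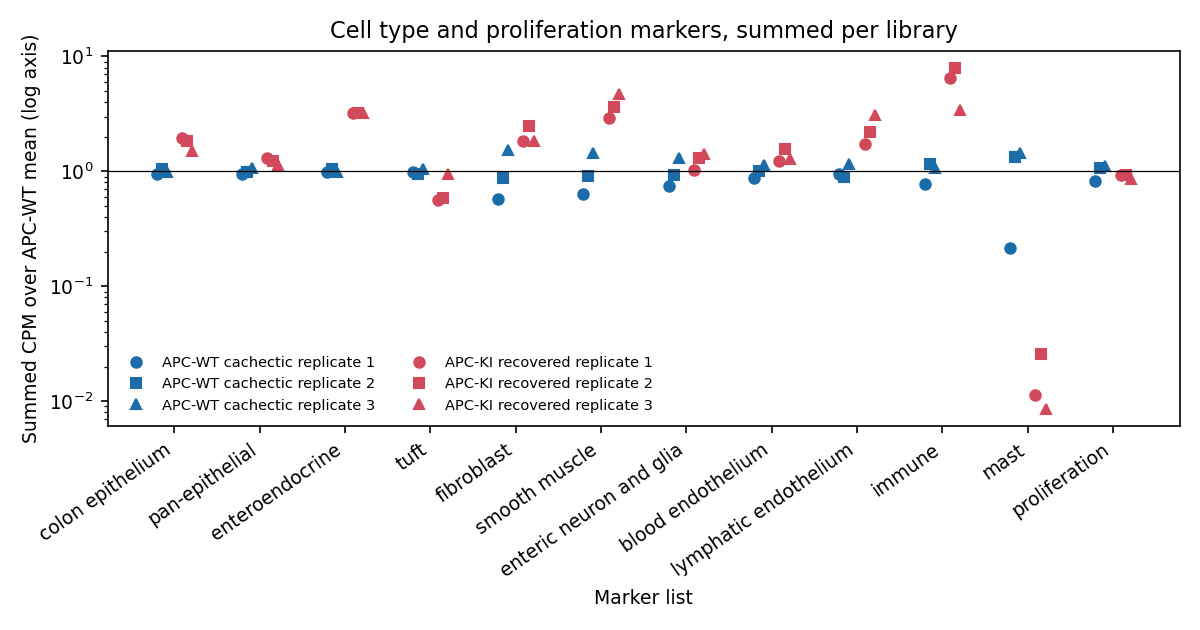
Summed CPM of each marker list in every library, divided by the APC-WT mean of that list (log axis), with APC-WT cachectic tumours in blue and APC-KI recovered tumours in red. Pan-epithelial sums differ by 1.22-fold between the group means, and mast cell markers are at 4.98 to 14.8 CPM in APC-KI tumours against 125 to 833 CPM.

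The levels of the 8 genes were also set beside markers of epithelium. The part of epithelial cells in these levels was not tested. The sum of 10 pan-epithelial markers, among them *Epcam*, *Cdh1* and keratin genes, was 8653 to 9698 CPM in APC-WT against 10308 to 11895 CPM in APC-KI tumours. Of the 10, 4 were called higher and 1 lower, *Cldn4*, where 12.5% and 7.63% of all genes tested were. When counts were scaled to these markers, 7 of the 8 genes again passed as lower, where 27.2% of all genes did, 23.2% of calls were higher and the median of all genes was −0.31. The log2 changes were then −3.02 for *Apcdd1*, −2.18 for *Sp5*, −1.95 for *Nkd1*, −1.72 for *Prox1*, −1.65 for *Axin2*, −1.54 for *Tnfrsf19* and −0.91 for *Myc*. As ratios per 1000 CPM of the epithelial markers, *Apcdd1* was 103, 73.8 and 40.5 in APC-WT and 8.06, 4.98 and 13.6 in APC-KI libraries.

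Genes whose pattern over the 6 libraries was nearest to each of the 8 were sought among 12978 named genes, by the root mean square difference of log2 CPM centred on the gene's mean. Nearest to *Axin2* were *Aspscr1* (0.103) and *Wnt6* (0.109), and *Wnt6* was also the second nearest to *Prox1* (0.106) after *Tmod2*. *Axin2* and *Prox1* were the closest pair within the 8, at 0.138. Their ratio was 1.00 ± 0.15 in APC-WT and 1.07 ± 0.03 in APC-KI tumours (exact permutation p = 0.6). *Tcf7* was nearest to *Tnfrsf19* (0.112), followed by *Lhpp* (0.114). The homeobox gene *Dlx3* was nearest to *Apcdd1* (0.0667), with *Ism1* the second (0.236). *Plagl1* (0.0977) and the homeobox gene *Evx1* (0.109) were nearest to *Sp5*, and *Sdk2* (0.107) and *Gprc5c* (0.121) to *Nkd1*. *Trim2* (0.0425) and *Guk1* (0.0525) were nearest to *Myc*, and *Clu* (0.175) and *Mpdz* (0.193) to *Nkd2*. These distances include the difference between the groups and describe these libraries only.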

How the data were processed

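RNA was measured in 6 mouse colon tumour libraries. Per the labels' protocols, tumours were pinched from the muscle beneath and sequenced from a stranded kit that selects mRNA. The submitters' processing notes name STAR, cutadapt 2.5, DESeq2 1.37.6 and Trim Galore 0.6.4, with the builds GRCm38 and mm10. The sources used here name no counter, strand setting or annotation release. The authors deposited raw counts per Ensembl gene, and no other unit was used. GENCODE M21 named 52147 of 53700 identifiers, and only 35 identifier versions equalled its own, so the counts come from another release.

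Genes passing filterByExpr were scaled with TMM and tested in edgeR 4.0.16 (R 4.3.3; robust quasi-likelihood, group as the sole term), with Benjamini-Hochberg adjustment over 19127 genes. SEs and 95% intervals come from the quasi-likelihood F test. Exact permutation tests used log2 ratios of CPM, and pattern distances used log2 of CPM plus 0.5, among named genes other than pseudogenes whose mean log2 CPM was 1 or more. Lists are described by counts, without set tests. A colon epithelium marker of the original list is not reported here and was left out of its sum. The members and lists were chosen with earlier results of these data known, and the alternatives were written down ahead of this fit. Named are the 8 genes, *Tcf7l2*, up to 4 genes per pathway list with the smallest p and 2 nearest genes per member. Other names were chosen after their values were seen. Within groups libraries differed far beyond counting noise (chi-square per gene 40.1 to 114.5), so each counted as 1 replicate. That spread cannot show whether tumours came from separate mice. Data simulated for this comparison held 18827 genes tested, of which 97 were changed 2-fold and 99 were changed 4-fold, up or down. Of these 39.2% and 81.8% were called, and 7.03% of calls were false. Far more genes were called in the tumours than were changed in the simulation, so these shares need not hold for the tumours.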

Additional observations from a re-analysis of the deposited data

How the results depend on the processing

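All 7 genes that fell had a negative log2 change under each of 18 alternatives. The count of 7 lower and 0 higher held with RLE and upper-quartile factors, library totals, scaling to pan-epithelial counts, DESeq2 1.42.0, limma-voom 3.58.1, both other filters on low counts and removal of mitochondrial and the 10 most abundant genes. It was 1 lower (*Tnfrsf19*) in the 4 libraries that lacked Y-linked counts and 1 lower with those counts as a covariate, where the single APC-WT library without them sets the contrast. Leaving out each library gave 5 to 7 lower and 0 to 1 higher genes of the 8.

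Over all genes tested, 1459 were lower and 2388 higher. Lower genes numbered 2844 with library totals, 5209 scaled to pan-epithelial counts, 2388 in DESeq2, 465 with the replicate block, 195 with the Y-linked covariate and 152 over the 4 libraries. Higher genes numbered 1571 scaled to pan-epithelial counts, 1195 with the replicate block, 220 with the covariate and 178 over the 4 libraries. Leaving out each library gave 300 to 1595 lower and 788 to 2542 higher genes. The causes were not tested. Same-numbered libraries did not deviate together (correlations of 0.03, −0.07 and −0.18), so the numbers do not pair them; with the replicate block 6 of the 8 genes passed as lower, without *Axin2*. The motif count was 3 windows with the core letters and 2 with CTTTGAT alone, against 2. Among 432 recomputed values of the other named genes 365 kept direction and call, 65 lost the call and 2 gained it. *Nkd2* had the fewest counts of the 8, 98 to 414 a library, and its log2 change was positive except in the 4 libraries (−0.14) and with the covariate (−0.14).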
